A study of Rattus norvegicus with 6 samples.

Results

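The miRNAs of the miR-17-92 and miR-106b-25 clusters were examined in kidneys of rats given aristolochic acid (AA) and of untreated rats. The members were the probes that the array files name in rat as miR-17-5p, miR-18a, miR-19a, miR-19b, miR-20a or miR-92a for the first cluster, and as miR-106b, miR-93 or miR-25 for the second. The rule found 9 of the 5560 miRNA probes of the array, 6 from miR-17-92 and 3 from miR-106b-25, among 679 probes with a rat name. The names of passenger strands, which end in an asterisk, were not taken as members.

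Kidney RNA from 3 control rats (replicates 13, 14 and 15) and 3 AA rats (replicates 19, 20 and 21) was hybridised, with 1 single-colour array per rat. All 6 animals were male Fisher 344 rats carrying the Big Blue transgene, a shuttle vector for scoring mutations, so the controls carried it too. AA, a plant nephrotoxin and carcinogen that forms DNA adducts, was gavaged as the sodium salt from 6 weeks of age, 5 times weekly over 12 weeks at 10.0 mg/kg per dose. The rats were killed 1 day later. The controls are labelled untreated, with the same age of 6 weeks, and a vehicle is not named. The samples are labelled kidney, and in RNA from a whole tissue fewer cells of a type and less RNA per cell cannot be told apart.

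Both clusters are polycistrons, in which several hairpins are cut from a single primary transcript. The miR-17-92 transcript is switched on by MYC and E2F factors, is often amplified in tumors, and is required by nephron progenitors in the developing kidney. It also drives cyst growth in polycystic kidney disease. The miR-106b-25 hairpins lie in an intron of Mcm7, which encodes a subunit of the replicative helicase, and are therefore transcribed with a gene of dividing cells. A miRNA finds its targets mainly through its seed, bases 2 to 8 from the 5′ end, and the 9 members carry only 4 different seeds.

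The mature sequences are shown because the seeds cut across the clusters, with the seed in capitals. The 9 array targets were all identical to the mature sequences of RefSeq on GRCr8. The first family, with the seed AAAGUGC, holds miR-17-5p and miR-20a of one cluster and miR-106b and miR-93 of the other. These miRNAs are known to repress the cell cycle inhibitor p21 and E2F1.
rno-miR-17-5p: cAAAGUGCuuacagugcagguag
rno-miR-20a: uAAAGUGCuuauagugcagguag
rno-miR-106b: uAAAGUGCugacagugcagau
rno-miR-93: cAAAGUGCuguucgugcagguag

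The second family, with the seed AUUGCAC, again takes a member from each cluster. Its members are known to repress the proapoptotic protein Bim.
rno-miR-92a: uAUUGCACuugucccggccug
rno-miR-25: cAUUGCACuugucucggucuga

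The remaining seeds occur in miR-17-92 alone. miR-18a is known for repressing transcripts of the TGF-β pathway.
rno-miR-18a: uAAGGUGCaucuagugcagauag
rno-miR-19a: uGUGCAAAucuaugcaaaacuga
rno-miR-19b: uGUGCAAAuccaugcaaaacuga

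Close sequences limit what a probe can separate. By edit distance, the number of single-base changes, insertions or deletions between sequences, miR-19a and miR-19b are 1 apart, miR-17-5p and miR-20a are 2 apart, miR-17-5p and miR-93 are 3 apart, and miR-92a and miR-25 are 4 apart. Cross-hybridisation between such members was not tested.

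The loci were read from the RefSeq tables on GRCr8. From first to last, the 6 mature sequences of miR-17-92 span 762 bases at chr15:98587861-98588622 on the plus strand. No gene other than miRNA genes in the table overlaps this span. The 3 mature sequences of miR-106b-25 span 472 bases at chr12:22156652-22157123 on the minus strand, and this span lies wholly inside Mcm7. In a related cluster on the X chromosome the mature sequences matched here span 850 bases at chrX:137342788-137343637 on the minus strand. The genes Mir106a, Mir19b2 and Mir92a2 of this X-linked cluster give the same mature sequences as miR-17-5p, miR-19b and miR-92a in RefSeq. For these 3 members the array therefore reports both loci together.

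AA replicate 20 stood apart from the other arrays before any group was compared. Of the 1132 probes tested, 66.8% were well above background on that array, against 84.9% to 97.9% on the other 5. On the authors' deposited intensity scale, miR-122, the abundant miRNA of liver, read 15191 on AA replicate 20, 27.3, 48.5 and 24.6 on the controls, and 8.17 and 14.9 on AA replicates 19 and 21. On the same scale miR-30a of the kidney tubule read 439 on AA replicate 20 and 1532 to 1980 elsewhere, and miR-126 of endothelium read 602 on it and 1210 to 1646 elsewhere. The tubule miRNA miR-192 lay between 1189 and 1586 on all 6 arrays, while miR-204 and miR-215, also listed for tubules, were under 32 on every array. miR-194, the partner of miR-192 in tubules, read 608 to 802 in control and 264 to 453 on the 3 AA arrays, all below the controls, with a log2 change of -0.82 (SE 0.34, adjusted p = 0.885 in limma) and of -0.53 without AA replicate 20. The 5 tubule markers summed to 3359 to 4191 in control, 3598 to 3830 on AA replicates 19 and 21, and 2004 on AA replicate 20. The 5 markers of smooth muscle and stroma were all higher in AA by fitted change, with 0 past the test and sums of 2520 to 3794 in control and 3483 to 4973 in AA. Over all tested probes 45.8% were higher. The log2 changes were 0.06 for miR-143, 0.08 for miR-145, 0.43 for miR-199a-5p, 0.72 for miR-214 and 0.74 for miR-199a-3p. Without AA replicate 20, where miR-199a-5p was not well above background, they were 0.24, 0.50, 0.88, 0.73 and 0.84. Of the leukocyte list, miR-142-3p, miR-142-5p and miR-223 were under 32 on every array, and miR-155 was not among the rat names. miR-146a read 1451 to 1872 in control and 778 to 1362 in AA, with a log2 change of -0.78 (SE 0.25, adjusted p = 0.871 in limma). miR-150 went the other way, with 0.34 (SE 0.26, adjusted p = 0.885 in limma). Without AA replicate 20 these were -0.73 and 0.45. Leukocyte sums were 1774 to 2398 in control and 1311 to 1938 in AA. The erythroid miR-451 changed by -0.34, or -0.18 without AA replicate 20, and miR-144 was under 32 on every array. The muscle and brain markers were under 32 throughout, and no marker of any list passed the test. Whether the RNA of AA replicate 20 came from kidney alone was not tested, nor was the part of these shifts in the members' values. The fitted changes and the summaries over members below are therefore given with and without this array.

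Of the 9 members, 6 reached the study's intensity limit of 32 on at least 1 array and were tested. They were miR-17-5p, miR-20a and miR-92a of miR-17-92, and all 3 members of miR-106b-25. No member differed between AA and control in limma's test, with 0 of 6 past an adjusted p of 0.05. Over all tested probes 2 of 1132 passed, or 0.177%, both higher in AA. None of the 6 had an unadjusted p under 0.05, which 56 of 1132 probes (4.95%) had, and the methods' t-test also called 0 of 6. Without AA replicate 20 the count of members past the adjusted threshold was again 0, against 3 of 1132 probes (0.265%). Of the members, miR-17-5p alone then had an unadjusted p under 0.05 in limma. Over all tested probes 91 of 1132 had such a p without that array, and 17 of the 180 tested rat probes.

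**Figure D1:**
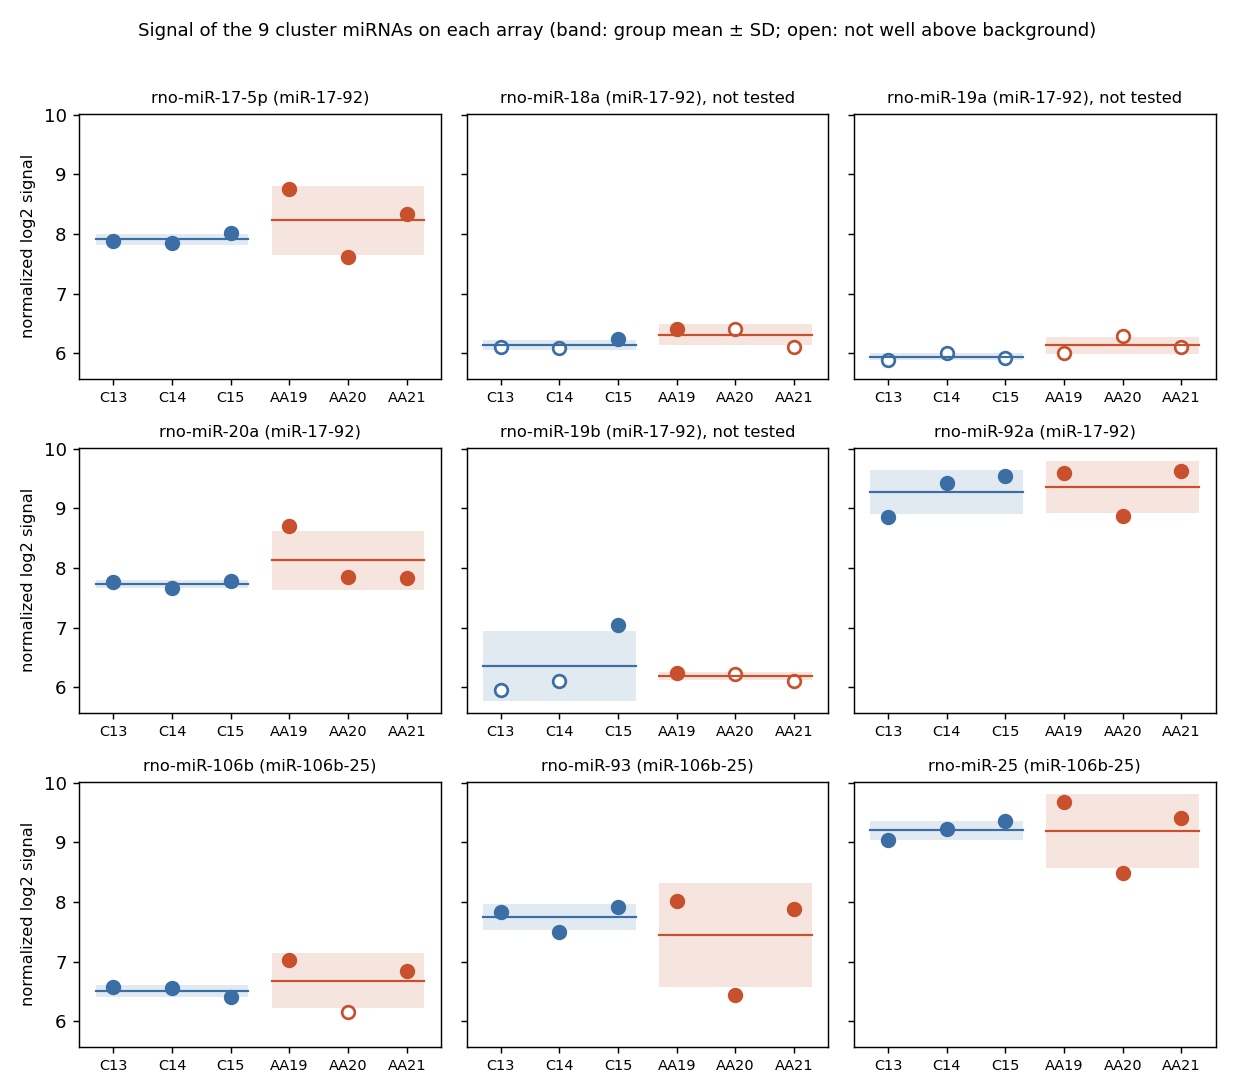
Normalized log2 signal of the 9 members (vertical axis) on each of the 6 arrays (horizontal axis), controls in blue and AA in orange, with the line and band giving the mean and SD of 3 arrays and open circles marking a signal not well above background. AA replicate 20 was the lowest array for miR-17-5p, miR-106b, miR-93 and miR-25, and the signals of miR-18a, miR-19a and, outside control replicate 15, miR-19b lay near the floor.

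miR-17-5p, the member that gives the larger cluster its name, read 7.89, 7.84 and 8.02 in normalized log2 signal on control replicates 13, 14 and 15. It read 8.75 on AA replicate 19, 7.61 on AA replicate 20 and 8.34 on AA replicate 21. AA replicates 19 and 21 lay above every control and AA replicate 20 below every control, so the groups overlapped. The group means were 7.92 ± 0.09 in control and 8.24 ± 0.58 in AA (SD, n = 3 each). The fitted log2 change was 0.32 (SE 0.34, 95% interval -0.48 to 1.12, adjusted p = 0.885 in limma). It was 0.70 without AA replicate 20 (SE 0.24, 95% interval 0.12 to 1.29, adjusted p = 0.481 in limma) and 0.07 without AA replicate 19. On the deposited scale the intensity was 157, 154 and 177 in control and 332, 147 and 218 in AA, in the same order of arrays. The spread within the AA group was therefore several times that within the control group on both scales.

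miR-20a, of the same seed family, read 7.77, 7.67 and 7.79 in normalized log2 signal on the controls. It read 8.70, 7.85 and 7.83 on AA replicates 19, 20 and 21. All 3 AA arrays lay above all 3 controls, the one member among those tested with groups that did not overlap. Over all tested probes 113 of 1132 (9.98%) had groups that did not overlap, 50 of them (4.42%) with AA higher and 63 (5.57%) with AA lower. The gap was small, since AA replicate 21 exceeded control replicate 15 by less than the range of the controls, and the deposited intensities of 137, 125 and 143 in control and 321, 147 and 133 in AA overlapped. The fitted log2 change was 0.39 (SE 0.31, 95% interval -0.35 to 1.13, adjusted p = 0.885 in limma). It was 0.59 without AA replicate 20 (SE 0.33, adjusted p = 0.662 in limma) and 0.09 without AA replicate 19, the array with by far the highest value.

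miR-92a, the last hairpin of the transcript, read 8.86, 9.43 and 9.55 in normalized log2 signal on the controls and 9.59, 8.87 and 9.62 on AA replicates 19, 20 and 21. Control replicate 13 and AA replicate 20 were both low, and the groups overlapped. The means were 9.28 ± 0.37 and 9.36 ± 0.43 (SD, n = 3 each), a log2 change of 0.08 (SE 0.33, 95% interval -0.70 to 0.86, adjusted p = 0.944 in limma). Without AA replicate 20 the change was 0.34 (SE 0.28, adjusted p = 0.763 in limma). The deposited intensities were 384, 606 and 588 in control and 619.7, 455 and 609.8 in AA, which placed the arrays in nearly the same order.

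The other members of miR-17-92 were too dim to test. The deposited intensity of miR-18a was 3.16, 2.23 and 10.3 in control and 20.7, 8.76 and 4.73 in AA, and miR-18a was well above background only on control replicate 15 and AA replicate 19. miR-19a did not exceed 2.92 on any array and was not well above background on any of the 6. miR-19b did not exceed 9.61 on the deposited scale. On control replicate 15 its scanner spots read 59.2 and 200.3, so the high normalized log2 signal of 7.04 there came from 1 of 2 spots, and the deposited table gives 0.01 for it. No direction is given for these 3 members. Well above background here means a signal over the median of the array's empty spots plus 3 robust SDs.

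miR-106b read 6.58, 6.56 and 6.40 in normalized log2 signal on the controls and 7.04, 6.16 and 6.85 on AA replicates 19, 20 and 21. It lay above every control on AA replicates 19 and 21 and below every control on AA replicate 20, where it was not well above background. It passed the intensity limit only through AA replicates 19 and 21, with deposited intensities of 61.9 and 41.9 against 29.3, 24.7 and 21.1 in control and 9.43 on AA replicate 20. The log2 change was 0.17 (SE 0.31, 95% interval -0.55 to 0.89, adjusted p = 0.918 in limma). It was 0.50 without AA replicate 20 (SE 0.22, adjusted p = 0.592 in limma) and -0.01 without AA replicate 19. A change of so dim a probe is understated by the offset of 50 added in the background correction.

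miR-93 read 7.83, 7.51 and 7.92 in normalized log2 signal on the controls. It read 8.02 and 7.89 on AA replicates 19 and 21, within or just above the control range, and 6.45 on AA replicate 20, the widest gap of any member. The log2 change was -0.29 (SE 0.45, 95% interval -1.35 to 0.76, adjusted p = 0.890 in limma), and 0.24 without AA replicate 20 (SE 0.24, adjusted p = 0.807 in limma). The deposited intensity was 144, 106.1 and 167 in control and 187, 39.6 and 152 in AA. The negative sign of miR-93 thus rested on AA replicate 20.

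miR-25 read 9.04, 9.23 and 9.35 in normalized log2 signal on the controls and 9.68, 8.49 and 9.40 on AA replicates 19, 20 and 21. AA replicates 19 and 21 lay above every control and AA replicate 20 below every control. The means of 9.20 ± 0.16 and 9.19 ± 0.62 (SD, n = 3 each) gave a log2 change of -0.01 (SE 0.36, 95% interval -0.85 to 0.83, adjusted p = 0.990 in limma), and the change was 0.35 without AA replicate 20 (SE 0.23, adjusted p = 0.733 in limma). On the deposited scale the intensity was 447, 524 and 504 in control and 658, 315 and 523 in AA.

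**Figure D2:**
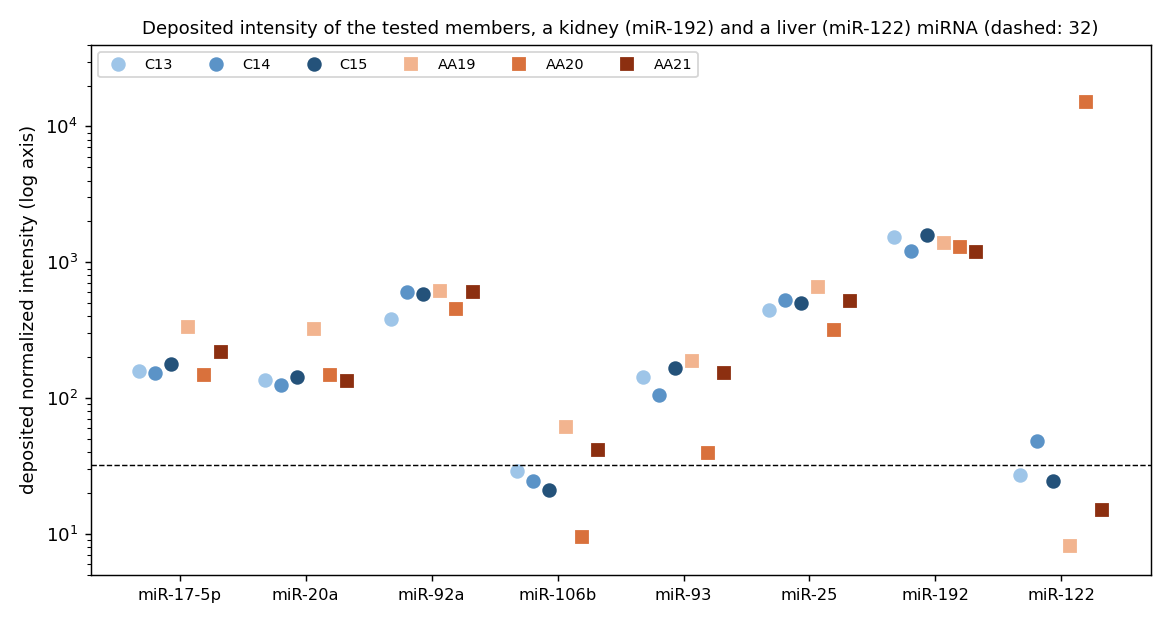
Deposited normalized intensity (vertical axis, log scale) of the 6 tested members, of miR-192 from kidney tubules and of miR-122 from liver, with 1 point per array, circles for control and squares for AA, and a dashed line at the limit of 32. miR-122 read 15191 on AA replicate 20 and at most 48.5 on any other array, while the members read within or below their control range on that array except for miR-20a.

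For miR-17-5p, miR-106b and miR-25, AA replicates 19 and 21 lay above all controls and AA replicate 20 below them. This order was not particular to the members, since miR-30a, miR-126 and miR-199a-5p of the marker lists and miR-92b also had it, while miR-192, miR-194 and miR-214 did not. The share of all tested probes with this order was not counted. On normalized log2 signal, both AA replicate 19 and AA replicate 21 exceeded every control for 5 of the 6 tested members, miR-93 being the exception. The same held for 202 of 1132 tested probes (17.8%). Without AA replicate 20 the fitted change was above 0 in 6 of 6 members, from 0.24 for miR-93 to 0.70 for miR-17-5p, where 561 of 1132 tested probes (49.6%) and 115 of 180 tested rat probes were above 0. With all 6 arrays, 4 of 6 members and 519 of 1132 probes (45.8%) were above 0. miR-106b was tested only through AA replicates 19 and 21, so its place in these counts was built in by the limit on intensity, and without it they were 4 of 5, 5 of 5 and 3 of 5. The counts are descriptions of the members, which are not replicates of each other, and no single change passed the threshold.

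**Figure D3:**
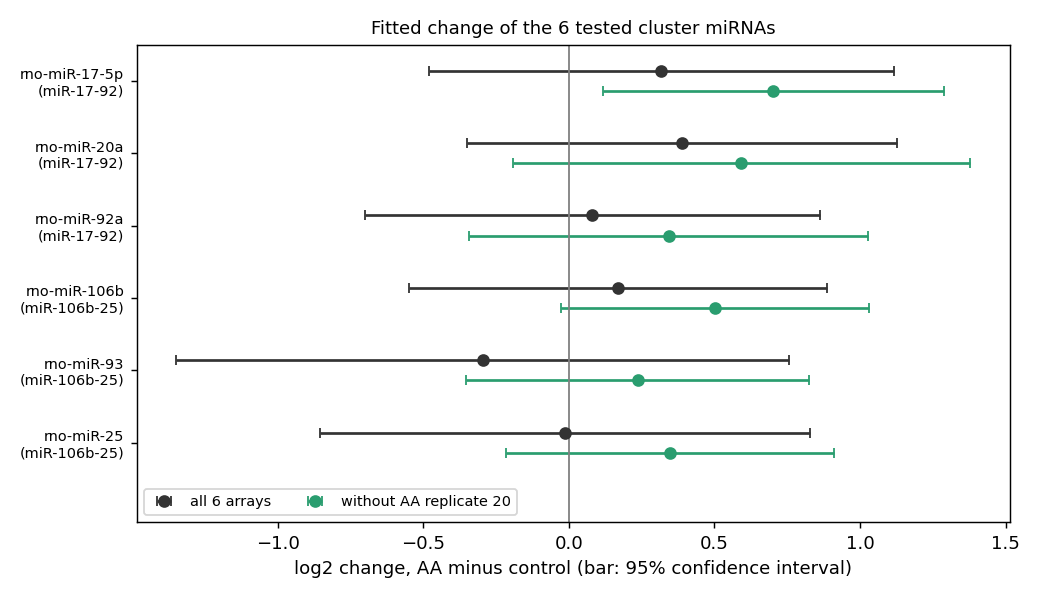
Fitted log2 change, AA minus control (horizontal axis), of the 6 tested members, with bars for the 95% confidence interval, from all 6 arrays in black and without AA replicate 20 in green. Every interval from 6 arrays spans 0, and all 6 estimates lie above 0 without AA replicate 20.

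The clusters were then set side by side. The median log2 change of the tested members was 0.32 for miR-17-92, with 3 of 3 above 0 and a range of 0.08 to 0.39. It was -0.01 for miR-106b-25, with 1 of 3 above 0 and a range of -0.29 to 0.17. The member above 0 was miR-106b, which passed the intensity limit only through AA arrays. Its place in this median, count and range was therefore built in by the limit. The median over all 1132 tested probes was -0.05, and over the 180 tested rat probes 0.03. The difference between the cluster medians, miR-106b-25 minus miR-17-92, was -0.33, and -0.24 without AA replicate 20, where the medians were 0.59 for miR-17-92 and 0.35 for miR-106b-25. A stricter filter, with the intensity limit reached on at least 3 arrays, dropped miR-106b. From all arrays the medians were then -0.15 for miR-106b-25 and 0.32 for miR-17-92, a difference of -0.47. The medians were not tested, since cluster members share a transcript and are not replicates.

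On single arrays the clusters moved mostly together. The mean deviation of the tested miR-17-92 members from their control means, in log2 signal, was between -0.14 and 0.14 on the controls. It was 0.70 on AA replicate 19, -0.20 on AA replicate 20 and 0.28 on AA replicate 21. For miR-106b-25 the same mean was -0.01, -0.06 and 0.07 on the controls and 0.42, -0.79 and 0.23 on the AA arrays. The miR-106b-25 mean includes miR-106b, which was tested only through AA arrays. Both clusters were highest on AA replicate 19 and lowest on AA replicate 20. The difference between the clusters, miR-106b-25 minus miR-17-92, was 0.13, -0.06 and -0.07 on the controls and -0.28, -0.59 and -0.06 on the AA arrays. AA replicate 21 lay within the control range of this difference, so the groups overlapped.

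**Figure D4:**
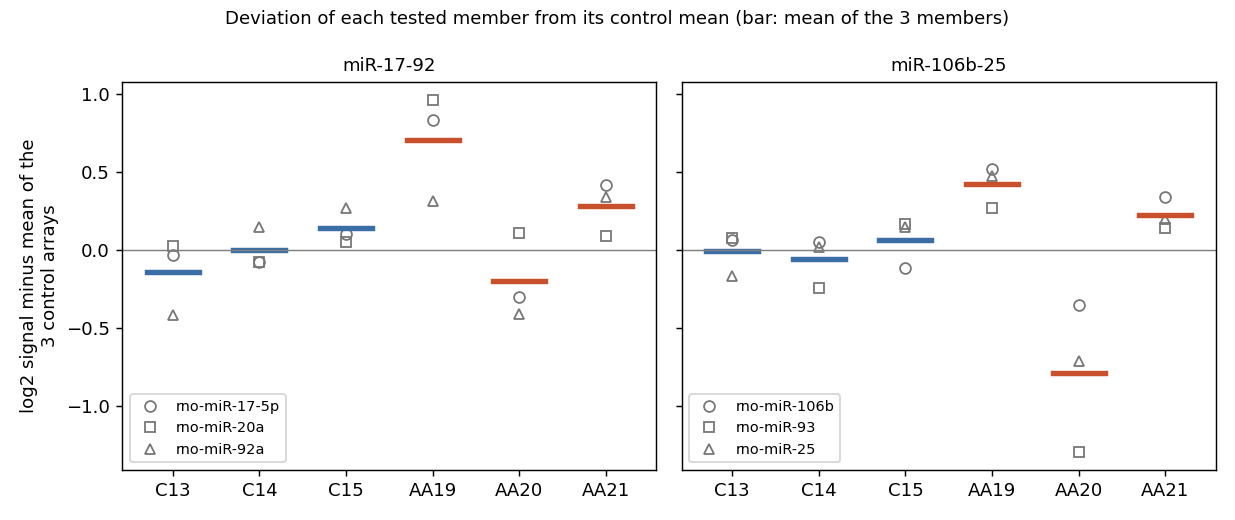
Log2 signal of each tested member minus its mean over the 3 control arrays (vertical axis), by array (horizontal axis), with 1 panel per cluster and a bar for the mean of the 3 tested members. The bars reach 0.70 and 0.42 on AA replicate 19, and fall to -0.20 and -0.79 on AA replicate 20.

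Which members lay closest together depended on AA replicate 20. Likeness was measured as the root mean square difference between the profiles of a pair over the 6 arrays, each centred on its own mean, for the 15 pairs of tested members. The closest pair was miR-17-5p with miR-106b at 0.156, of the same seed and different clusters, followed by miR-17-5p with miR-25 at 0.189 and miR-92a with miR-25 at 0.190. The closest pair within a cluster was miR-106b with miR-25 at 0.194, and the most distant pair was miR-20a with miR-93 at 0.549, which share a seed. Over the 5 arrays without AA replicate 20 the closest pair was miR-17-5p with miR-20a at 0.156, of the same cluster and seed, the next were miR-106b with miR-25 at 0.166 and miR-92a with miR-25 at 0.167, and the most distant was miR-20a with miR-92a at 0.387. By seed family the median log2 change was 0.24 over the 4 AAAGUGC members and 0.03 over the 2 tested AUUGCAC members, and 0.55 and 0.35 without AA replicate 20.

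The rat miRNAs with profiles nearest to each cluster were found by the same measure among 170 other tested rat probes, whose median distance was 0.396 from miR-17-92 and 0.399 from miR-106b-25. Nearest to miR-17-92 were miR-193 (0.116), miR-130b (0.120) and miR-16 (0.138), with log2 changes of 0.24, 0.29 and 0.04, and of 0.42, 0.51 and 0.28 without AA replicate 20. miR-193 and miR-130b lay near the floor on the controls, at 6.24, 6.21 and 6.34 and at 6.10, 6.11 and 6.17 in normalized log2 signal. On AA replicate 19 they read 6.82 and 6.67. On AA replicates 20 and 21 miR-193 read 6.23 and 6.44, and miR-130b 6.10 and 6.50. Whether they passed the limit on intensity only through AA replicate 19 was not examined. If so, their likeness to miR-17-92, also highest there, was partly built in by the limit. Nearest to miR-106b-25 were miR-23b (0.087), miR-324-5p (0.087) and miR-23a (0.097), with log2 changes of -0.07, 0.04 and -0.19, and of 0.23, 0.43 and 0.19 without AA replicate 20. Over the 5 arrays without it these ranked 2, 3 and 5 for miR-17-92 and 9, 6 and 8 for miR-106b-25. None of the 6 passed the adjusted threshold with or without that array, and each was highest on AA replicate 19.

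Rat miRNAs with the members' seeds, and the other arms of the member hairpins, gave 16 further probes, of which 4 were tested and 0 called. The same-seed miRNAs are shown beside the members because they would act on the same target sites, again with the seed in capitals.
rno-miR-20b-5p: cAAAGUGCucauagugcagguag
rno-miR-92b: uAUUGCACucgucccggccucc
rno-miR-32: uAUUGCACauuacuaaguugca
rno-miR-363: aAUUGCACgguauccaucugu

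miR-20b-5p, from the X-linked cluster and 2 edits from miR-20a, read 6.66, 6.55 and 6.31 in normalized log2 signal on the controls and 7.44, 6.65 and 6.49 on AA replicates 19, 20 and 21. AA replicate 19 alone lay above every control, and it was also the one array that took miR-20b-5p past the intensity limit, with 107.8 there and at most 30.3 elsewhere. The log2 change was 0.35 (SE 0.33, adjusted p = 0.885 in limma), and 0.53 without AA replicate 20.

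miR-92b, 3 edits from miR-92a, read 7.49, 7.78 and 7.69 in normalized log2 signal on the controls and 8.05, 6.18 and 7.95 on the AA arrays, in the same pattern as miR-106b and miR-25. On AA replicate 20 its deposited intensity was 10.97 and it was not well above background. The log2 change was -0.26 (SE 0.51, adjusted p = 0.920 in limma), and 0.39 without AA replicate 20. miR-32 and miR-363 reached at most 2.79 and 11.8 in deposited intensity and were not tested.

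Of the 12 other-arm probes, 2 were tested. miR-17-1-3p changed by -0.26 in log2 signal (SE 0.33, adjusted p = 0.885 in limma), or -0.28 without AA replicate 20, and passed the limit only through control replicate 15, with a deposited intensity of 102 there and at most 6.76 on the other arrays. miR-18a*, the passenger strand of miR-18a, changed by 0.15 (SE 0.30, adjusted p = 0.921 in limma), or 0.01 without AA replicate 20, with deposited intensities of 7.28, 12.3 and 52.6 in control and between 17.99 and 38.4 in AA. The other 10 reached at most 12.6.

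Probes of other species with targets contained in a member's sequence, or containing it, gave a second reading of the same RNA. There were 11, of which 9 were tested and 0 called. The 3 for miR-17-5p changed by 0.37 to 0.41 in log2 signal, and the 2 for miR-20a by 0.28 and 0.36, beside 0.32 and 0.39 for the rat probes. The probe with 0.36, oan-miR-20a, passed the limit only through AA replicate 19, with a deposited intensity of 90.7 there and at most 16.1 elsewhere. The probe for miR-92a changed by -0.05, beside 0.08. The 3 for miR-93 changed by 0.23, -0.22 and -0.27, beside -0.29, and the 95% interval of each of these 9 changes spanned 0. Without AA replicate 20 the 3 readings of miR-17-5p were 0.77, 0.67 and 0.70, those of miR-20a 0.61 and 0.63, that of miR-92a 0.24, and those of miR-93 0.76, 0.28 and 0.12. The 95% intervals then lay above 0 for the 3 probes of miR-17-5p and for bta-miR-93, at 0.19 to 1.32, while none passed the adjusted threshold. Over all tested probes 91 of 1132 had an unadjusted p under 0.05 in limma without that array.

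**Figure D5:**
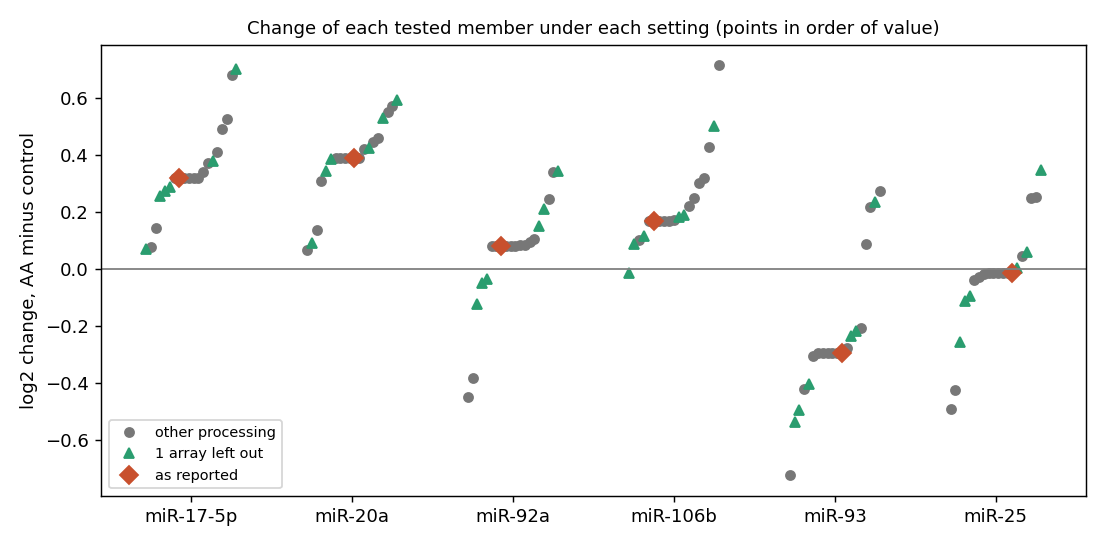
Log2 change, AA minus control (vertical axis), of each tested member (horizontal axis) as reported (diamond), under other processing (circles) and with 1 array left out (triangles), with points ordered by value within a member. miR-17-5p and miR-20a stay above 0 under all 19 alternatives, from 0.07 to 0.70 and from 0.07 to 0.59, and the other members have values on both sides of 0.

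Across the alternative settings miR-17-5p and miR-20a remained above 0 in 19 of 19, and no member passed the adjusted threshold in any. Alternatives that changed only the test, the filter or the averaging of 2 spots left these fitted changes at 0.32 and 0.39. Those settings could not have reversed the sign. The other 4 tested members took both signs. A p over the threshold does not show that AA left a member unchanged, and the 95% intervals from 6 arrays reached log2 changes from -1.35 for miR-93 to 1.13 for miR-20a.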

How the data were processed

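Per the labels, small RNA was size-selected, tailed, tagged and read with Cy3 on custom vertebrate miRNA arrays. The authors deposited scanner files with the median intensity of 15066 spots per array, uncorrected, and a table of normalized intensity. Their methods give background subtraction, LOWESS normalization, log2 transformation, a t-test and a limit of 32 on intensity. Members had 2 spots per array, with a median ratio of higher to lower spot of 1.17 and at most 1.49 among the tested members. These ratios are of scanner signal with the background still in it, so they understate the disagreement of dim spots. On AA replicate 20 the miR-17-5p spots read 94.6 and 120.3, where the median of the empty spots was 73.0.

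Scanner intensity was background-corrected by normexp (offset 50), fitted to all spots. Log2 values of miRNA spots were quantile-normalized, and spots were averaged. The 1132 probes at 32 or more on at least 1 array of the deposited table (Candidate_84, outside it, by scanner signal) were tested with lmFit and eBayes in limma 3.58.1 (R 4.3.3), with Benjamini-Hochberg adjustment over all of them and a threshold of 0.05. The number of arrays and signal over background limit the precision. All members and all tested related miRNAs are named, with the 3 nearest profiles per cluster. Members, lists and tests were chosen with earlier results of these data known. The code was tested on simulated data. Alternatives covered background, normalization, filter, test, array weights, spot averaging, the deposited values and each array left out.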

Additional observations from a re-analysis of the deposited data

How the results depend on the processing

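The count of members past the adjusted threshold was 0 under all 19 alternatives, as was that of the related probes. Over all 1132 tested probes 44 were called with array quality weights, and 0 to 3 under each of the other alternatives with their own numbers of probes tested. Adjusted p for tested members ranged from 0.147 (miR-17-5p, array quality weights) to 0.996 over the alternatives. The cluster difference of -0.33 stayed below 0 in 19 of 19. Alternatives that changed only the test or the averaging of 2 spots left it at -0.33 and could not have reversed its sign. It was -0.47 with the stricter filter, -0.19 with no filter, and -0.38 to -0.24 with 1 array left out. It was -0.088 with array quality weights, which gave AA replicate 20 the lowest weight and whose estimation stopped short of its tolerance. miR-25 changed sign to 0.25 with array quality weights, 0.045 with cyclic loess and 0.25 with the deposited values without AA replicate 20, an alternative chosen after seeing the data. Leaving out 1 array gave it -0.26 to 0.35, with the upper end without AA replicate 20. Under those same settings miR-93 changed sign to 0.22, 0.087 and 0.27, and took -0.54 to 0.24 with 1 array left out. In the other direction miR-93 was -0.72 with the empty-spot median subtracted and -0.42 with a normexp offset of 16. miR-92a fell to -0.38 and miR-25 to -0.42 with median scaling, and to -0.45 and -0.49 with no normalization, where the median of all tested probes moved from -0.05 to -0.26 and -0.32, and miR-92a took -0.12 to 0.34 with 1 array left out. miR-106b took -0.013 without AA replicate 19, 0.50 without AA replicate 20, and 0.71 with the deposited values without AA replicate 20. The cause was not tested. The stricter filter dropped miR-106b. No paired analysis was possible because the replicate numbers are not shared between groups. Signals near the floor limit miR-18a, miR-19a and miR-19b.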
